A study of Mus musculus with 16 samples.

Results

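The 39 genes described here encode the machinery that copies DNA in S phase, from the proteins that mark replication origins to the enzymes that make DNA precursors. They were chosen by name, as the genes whose symbols stand on a list of replication factors. The list was drawn up with earlier results of these data known. All 39 were found among the 55335 genes counted, and all 39 passed the filter on low counts that left 15197 genes for testing. They were grouped by the step they serve: origin licensing (4 genes), the MCM helicase ring (6), assembly of the active helicase (6), the polymerases (7), the sliding clamp and its loader (6), single-strand binding (2), flap removal and nick sealing (2), nucleotide supply (4) and cyclin E (2).

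The data are poly-A RNA sequencing libraries of CD8 T cells, the cytotoxic arm of the T cell lineage, enriched from the spleens of C57BL/6 mice. The mice were either wild type (wt) or Batf3-/- (ko), the latter lacking the AP-1 family transcription factor Batf3 in the whole animal. All cells were activated in medium with IL-15 at 50 ng/ml, on plate-bound anti-CD3 and with anti-CD28, each at 1 µg/ml, and the groups were wt at 48 h, ko at 48 h, wt at 72 h and ko at 72 h. Each group held 4 libraries, 16 in all, which the series text calls technical replicates. Taken at that wording, the spread behind every p-value is one between technical libraries, and differences between animals do not enter it. No pair of libraries of a group agreed within sampling noise, and the source of that extra spread was not tested. The sources used here do not give the number or age of the mice, and all 4 groups were stimulated.

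Totals ran from 29375818 to 39241169 counts per library. Batf3 had 75.8 to 87.7 CPM (reads of the gene relative to all counted reads of the library, on the usual CPM scale) in wt cells at 48 h and 28.7 to 34.2 CPM at 72 h, and at most 0.366 CPM in any ko library. The 8 CD8 T cell markers summed to 2166 to 3043 CPM. Of the 3 CD4 T cell markers, Cd4 and Foxp3 stayed at or below 0.896 CPM, while the CD4 lineage factor Zbtb7b had 18.2 to 59.9 CPM. Of the 8 B cell markers 5 stayed below 1 CPM in every library, among them Ms4a1 and Pax5, while the heavy chain gene Ighm lay between 217 and 327 CPM, Cd79b between 4.12 and 9.41 CPM and Ighd between 0.728 and 1.38 CPM. The 5 NK cell markers summed to 57.6 to 65.3 CPM in ko and 62.1 to 70.3 CPM in wt cells at 72 h, led by Eomes, which CD8 T cells also express, with means of 33.9 and 50.8 CPM. Klre1 reached 19.8, Klrb1c 7.36 and Tyrobp 3.14 CPM, and Ncr1 stayed at or below 0.591 CPM. The 6 red cell markers stayed at or below 0.364 CPM each. Of 10 myeloid markers only Cd68 reached 1 CPM. The summed myeloid markers were highest in ko cells at 72 h, at 9.78 to 13.02 CPM against 6.11 to 7.49 CPM in wt cells, and the summed B cell markers were 304 to 336 CPM against 224 to 294 CPM. Their part in the differences at 72 h was not tested. The ko 48 h replicate 4 and wt 72 h replicate 4 stood apart from their groups, with a root mean square distance of 0.175 and 0.163 on the log2 scale over 9191 genes, against 0.0819 to 0.122 for the other 14 libraries. Results that rest on either are given with and without them.

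Replication starts with licensing. In G1, the origin recognition complex, CDC6 and CDT1 load a double ring of MCM2 to MCM7 onto DNA, and in S phase CDC45 and the GINS complex join each ring to form the CMG helicase that opens the fork. Polymerase alpha-primase starts each strand, polymerases epsilon and delta extend them on the PCNA clamp, and ribonucleotide reductase and thymidylate synthase supply precursors. Many of these genes are transcribed in waves by E2F factors, which cyclin E and CDK2 help to release from RB proteins, and a T cell that leaves quiescence after antigen contact turns them on before its divisions begin. In bulk RNA, fewer cells in S phase and less RNA per cell cannot be told apart.

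The start-site regions of the genes were examined for letters like those that E2F factors bind. RefSeq windows on GRCm38.p6, from 250 bases before to 50 bases after the start site, were found for 31 of the 39 genes. One of 4 spellings, TTTCCCGC or TTTCGCGC or TTTGCCGC or TTTGGCGC, stood on either strand in 13 of the 31 (41.9%), against 2.60% of the 27025 genes with such a window and 4.84% of the 10149 tested genes with one. The shorter letters CCAAT stood in 19 of the 31 (61.3%), against 41.1% and 43.1% of the same genes. A gene with several matches counts once, spellings on opposite strands can overlap each other, and a match is a string of letters, not a bound site. The 200 bases before the start of 3 genes are shown because they hold the most matches (Mcm6, 3, of which 2 overlap), an overlapping pair (Mcm5) and a single match in a gene that passed the test at neither time between genotypes (Pola1). They run from chr1:128359706-128359905 on the minus strand for Mcm6, chr8:75109309-75109508 on the plus strand for Mcm5 and chrX:93632156-93632355 on the minus strand for Pola1. Capitals mark the E2F-like letters, read on the other strand in the case of Pola1, and where 2 matches overlap the capitals run on through both.
Mcm6: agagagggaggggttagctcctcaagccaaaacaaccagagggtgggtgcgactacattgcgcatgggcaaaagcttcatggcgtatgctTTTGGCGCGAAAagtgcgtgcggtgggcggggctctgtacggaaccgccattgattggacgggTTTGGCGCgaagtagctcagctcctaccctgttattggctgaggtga
Mcm5: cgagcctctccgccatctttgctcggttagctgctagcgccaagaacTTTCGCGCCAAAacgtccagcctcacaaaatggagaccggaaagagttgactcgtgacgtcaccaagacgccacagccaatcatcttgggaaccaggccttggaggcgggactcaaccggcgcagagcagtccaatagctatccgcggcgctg
Pola1: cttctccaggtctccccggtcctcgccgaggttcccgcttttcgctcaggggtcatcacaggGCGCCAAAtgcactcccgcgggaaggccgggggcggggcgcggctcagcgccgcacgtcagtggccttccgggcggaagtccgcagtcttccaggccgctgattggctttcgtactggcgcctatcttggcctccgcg
The 13 genes with such letters were Mcm3, Mcm5, Mcm6, Mcm7, Orc1, Cdc6, Cdt1, Gins3, Pola1, Pold1, Pole2, Rfc3 and Lig1. They included 4 of the 6 MCM ring genes and 3 of the 4 licensing genes.

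**Figure D1:**
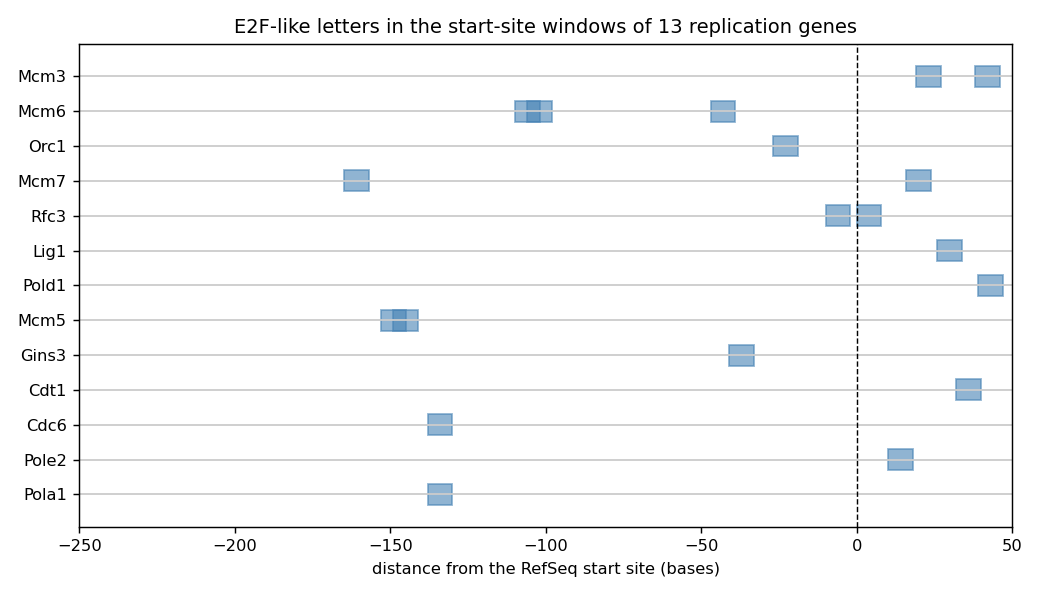
Each row is 1 of the 13 genes, the x axis is the distance from the RefSeq start site in bases (negative before it), and each box covers the 8 letters of 1 match. Matches lie on both sides of the start site, and the overlapping pairs of Mcm5 and Mcm6 appear as darker boxes.

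Summed over all 39 genes, wt cells at 48 h held 6043, 6157, 6054 and 5973 CPM, and ko cells at 48 h held 5369, 5547, 5796 and 5921 CPM. At 72 h the sums were 4574, 4438, 4847 and 4564 CPM in wt and 3485, 3373, 3458 and 3577 CPM in ko cells. The sums were thus ordered from high to low as wt 48 h, ko 48 h, wt 72 h, ko 72 h, with means of 6057 ± 75.8, 5658 ± 248, 4606 ± 172 and 3473 ± 84.0 CPM (SD, n = 4), and no library of one group overlapped another group. The ko sum was 93.4% of the wt sum at 48 h and 75.4% at 72 h. By step, the ko share of wt at 72 h was lowest for nucleotide supply (64.6%) and the MCM ring (70.3%), followed by cyclin E (72.6%), CMG assembly (75.0%), flap and nick repair (77.1%), single-strand binding (78.8%), the polymerases (79.0%) and licensing (82.1%), and highest for the clamp and its loader (86.2%). These are ratios of CPM, which divide by the library total, so that they include a shift of all genes at 72 h: with library totals the median tested gene stood at -0.14 on the log2 scale, and with the TMM scaling used for every fold change below at -0.015. A sum also follows its most abundant genes. In ko cells at 72 h Orc6 held 104.8 of the 199.2 CPM of licensing. Pcna held 437.7 of the 795.4 CPM of the clamp and its loader. By median log2 fold change at 72 h the order differed, with licensing lowest (-0.60), then nucleotide supply (-0.43) and the MCM ring (-0.41). The polymerases (-0.145) and the clamp and its loader (-0.081) had the highest medians.

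**Figure D2:**
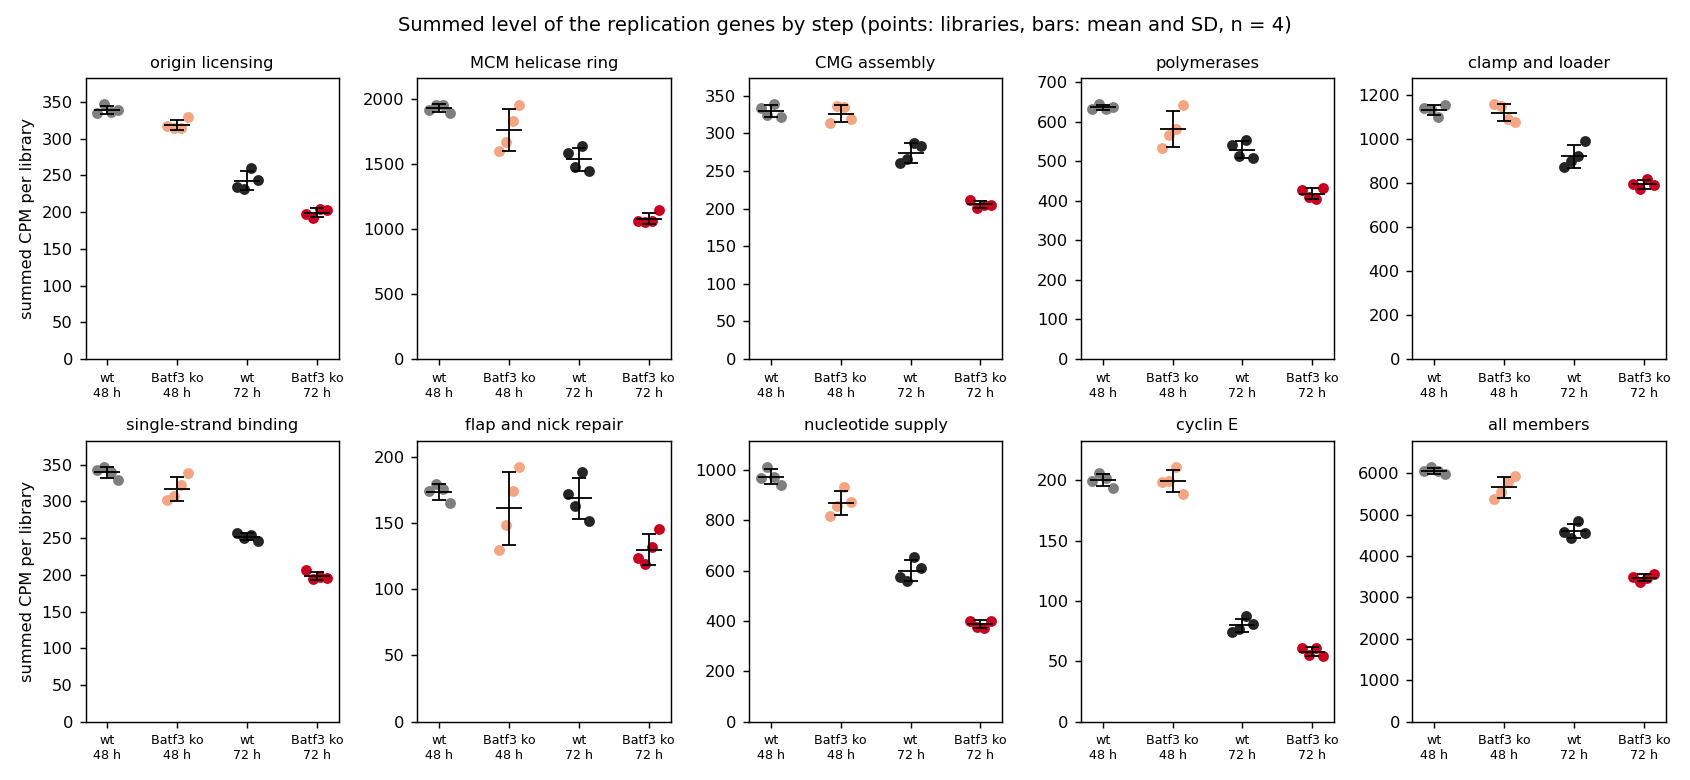
The y axis is the summed CPM of the genes of a step in each library, points are the 4 libraries of a group, and bars are the mean and SD. In the panel of all 39 genes the ko libraries at 72 h lie between 3373 and 3577 CPM, below the wt libraries at 4438 to 4847 CPM.

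At 48 h, 3 of the 39 genes were lower in ko cells and 0 were higher (edgeR quasi-likelihood F test, Benjamini-Hochberg adjusted p below 0.05 over all 15197 genes), where 2.66% of all tested genes were lower and 4.41% higher. At an unadjusted p below 0.05, 5 were lower and 4 higher. DESeq2 and limma-voom each called 4 lower and 1, Ccne2, higher. The median log2 fold change of the 39 was -0.064, against 0.011 for all tested genes. The CPM of 7 of the 39 lay wholly below the wt range and 0 wholly above it, against 8.76% and 5.69% of all tested genes. The 3 lower genes were Mcm4, Rfc1 and Rrm1, with log2 fold changes of -0.26 (SE 0.063, adjusted p = 0.0127), -0.21 (SE 0.055, adjusted p = 0.024) and -0.24 (SE 0.058, adjusted p = 0.0107).

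None of these 3 calls held under every alternative. Mcm4 had adjusted p = 0.0606 without wt 48 h replicate 2 and 0.0564 without ko 48 h replicate 1, and Rrm1 had 0.153 once offsets took out the dependence of each library on exon length. The Rfc1 call was lost with those offsets (adjusted p = 0.0556), with no filter on low counts (0.0541), and without any 1 of wt 48 h replicates 1 and 2 and ko 48 h replicates 1 and 2 (0.0866, 0.0978, 0.068 and 0.0609). The log2 fold changes at 48 h ran against exon length across the 39 genes, with a Spearman rho of -0.40, the points sharing the same libraries, and ko 48 h replicate 4 had the strongest length trend of the 16 libraries (rho 0.455 across genes). When both libraries that stand apart were left out, 6 of the 39 were lower (Mcm3, Mcm4, Pola2, Pole, Rfc1 and Rrm1) and 5 higher (Gins1, Gins4, Rfc4, Tyms and Ccne2). With ko 48 h replicate 4 alone left out, 3 were higher, and without wt 48 h replicate 2 or ko 48 h replicate 1 only 1 was lower.

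The 72 h libraries differed more: 26 of the 39 genes were lower in ko cells and 2, Orc6 and Pole2, were higher, where 19.5% of all tested genes were lower and 16.9% higher. The median log2 fold change was -0.27, against -0.015 for all tested genes. In CPM, 32 of the 39 lay wholly below the wt range and 0 above it, against 26.8% and 8.34% of all tested genes. The largest differences were in Orc1, Cdc6, Rrm2, Mcm10, Pole, Mcm3, Rrm1 and Mcm2, between -0.85 and -0.52 on the log2 scale. The other 11 genes did not pass the test, among them Pcna, 3 of the 5 clamp loader subunits and both primase subunits. Of the 28 calls, 23 held under all 26 alternatives, and the other 5 were Pole2, Rfc5, Rpa1, Fen1 and Lig1. Leaving out both libraries that stand apart gave 26 lower and 3 higher, the third being Rfc4.

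**Figure D3:**
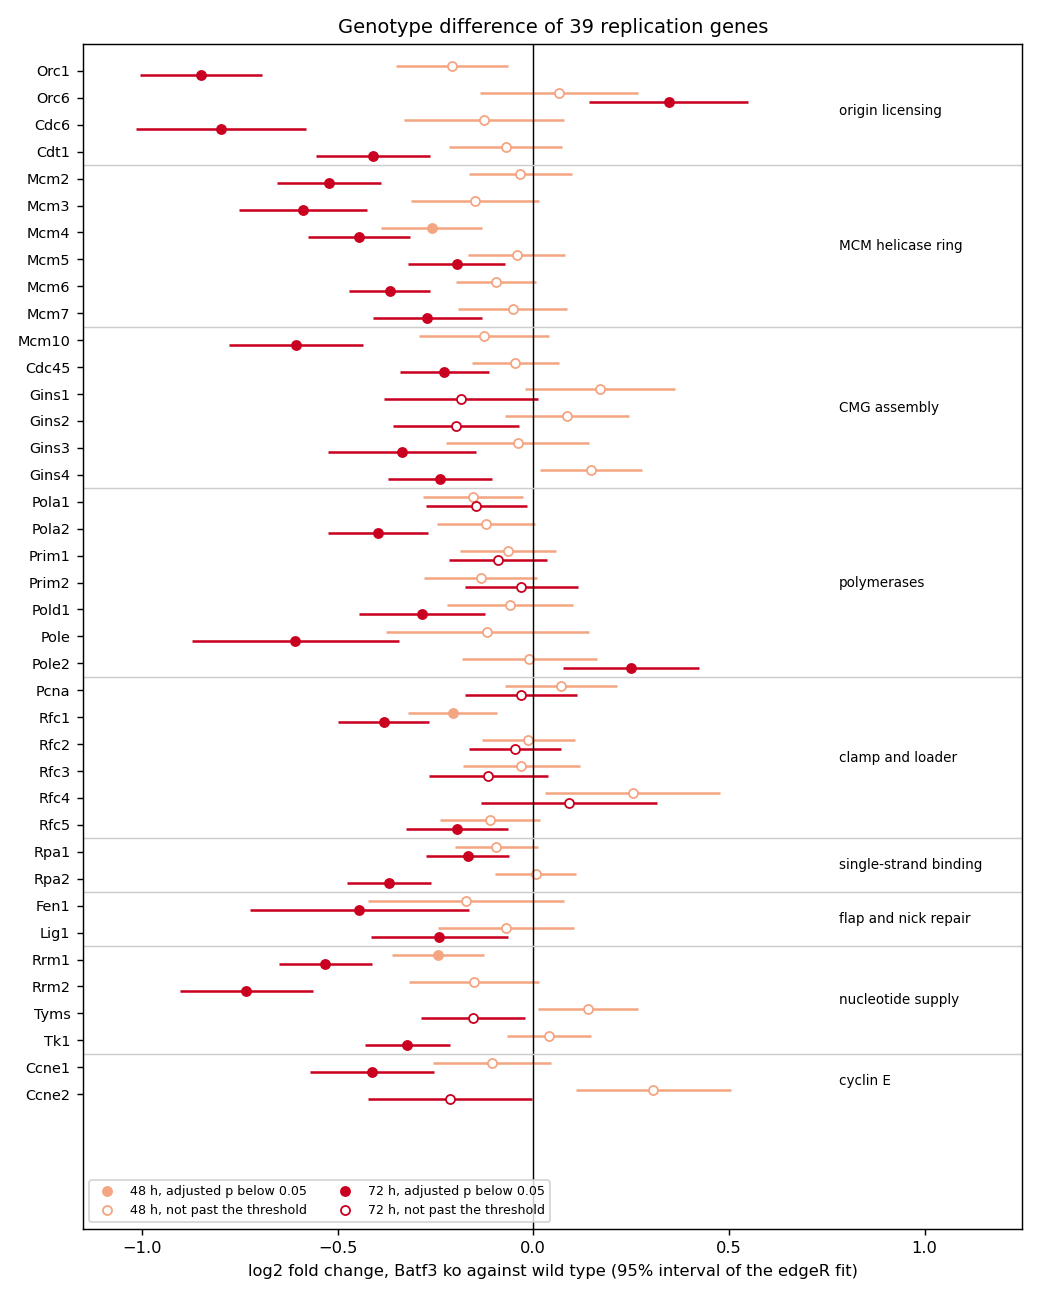
Each gene has its log2 fold change of ko against wt at 48 h (light) and 72 h (dark), with the 95% interval of the edgeR fit, and filled points have an adjusted p below 0.05. At 72 h 26 filled points lie left of 0 and 2, Orc6 and Pole2, lie right of it.

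Licensing genes split at 72 h. Orc1, the largest subunit of the origin recognition complex (ENSMUSG00000028587, chromosome 4, 108579423 to 108614833 in GRCm38), had 23.6, 24.3, 27.5 and 28.0 CPM in wt and 14.5, 12.7, 13.3 and 12.1 CPM in ko cells. Every ko library lay below every wt library, a log2 fold change of -0.85 by edgeR (SE 0.075, adjusted p = 1.5e-08). At 48 h its values were 63.4, 64.5, 60.9 and 61.5 CPM in wt and 52.9, 52.6, 53.9 and 52.0 CPM in ko cells, which did not overlap either, with a log2 fold change of -0.21 (SE 0.069) that missed the threshold (adjusted p = 0.0683). Cdc6, the loading ATPase, had 35.8, 38.4, 42.3 and 31.6 CPM in wt and 20.8, 16.9, 18.1 and 22.1 CPM in ko cells at 72 h, again without overlap, and a log2 fold change of -0.80 (SE 0.10, adjusted p = 4.2e-06). Its 4 ko libraries at 48 h were wide apart, at 45.8, 50.7, 62.0 and 70.9 CPM, and spanned the wt values of 61.2 to 65.9 CPM. Cdt1, the MCM chaperone that is destroyed once S phase begins, was lower, at -0.41 (SE 0.070, adjusted p = 8.0e-05), from 89.9 ± 10.5 CPM to 61.9 ± 4.48 CPM (SD, n = 4).

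Orc6, the smallest origin recognition subunit, went the other way. It had 82.1, 81.8, 88.2 and 108 CPM in wt and 97.4, 96.2, 117 and 108 CPM in ko cells at 72 h, and the groups overlapped through wt 72 h replicate 4. On the TMM scale it was higher in ko cells by 0.35 (SE 0.098, adjusted p = 0.00834), and by 0.22 with library totals (adjusted p = 0.0483) and 0.46 without wt 72 h replicate 4 (adjusted p = 0.000202). Orc6 overlaps Vps35, which lies on the opposite strand. Whether counting used the strand is not given in the sources used here, and without it the reads of such a pair cannot be told apart. An overlap with another gene model, on either strand, touches 21 of the 39 genes, among them Orc1, Mcm7, Cdc45, Rfc4, Fen1, Tk1 and Ccne2, and their values are uncertain to that extent.

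All 6 subunits of the MCM ring were lower in ko cells at 72 h, and no ko library of any of the 6 overlapped a wt library. Among all tested genes 19.5% were lower, and 26.8% had ko CPM wholly below the wt range. Mcm2 had 193, 177, 214 and 174 CPM in wt and 116, 120.1, 113 and 134 CPM in ko cells (log2 fold change -0.52, SE 0.064, adjusted p = 1.5e-06). Mcm3 had 244, 221, 263 and 207 CPM in wt and 134, 135, 136 and 164 CPM in ko cells (log2 fold change -0.59, SE 0.079, adjusted p = 4.8e-06). In both genes the lowest wt library lay above the highest ko library. Mcm4 and Mcm6 were lower, at -0.44 (SE 0.063) and -0.37 (SE 0.050), Mcm7 at -0.27 (SE 0.068) and Mcm5 at -0.20 (SE 0.060, adjusted p = 0.0129). Mcm6 at 72 h had 442, 420.4, 424 and 402 CPM in wt and 308, 296, 298 and 297 CPM in ko cells, and these 4 ko libraries lay close together.

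The ring holds 1 copy of each subunit, but its genes differed in CPM per kilobase of exon. By this measure Mcm6 was highest and Mcm2 lowest in all 4 groups. Mcm6 had 101 ± 1.65 CPM per kilobase in wt cells at 48 h and 64.3 ± 1.23 in ko cells at 72 h (SD, n = 4). Mcm2 had 43.6 ± 0.741 and 17.3 ± 1.39 CPM per kilobase in the same groups. The ratio of the highest to the lowest was 2.33 and 2.23 at 48 h in wt and ko cells, and 3.32 and 3.70 at 72 h. The length used was that of all annotated exons of a gene together, which may exceed that of the transcript present. It was 6956 bases for Mcm2 and 4666 for Mcm6, so these ranks and ratios depend on it. In CPM, Mcm2 (303) lay above Mcm4 (240) and Mcm7 (267) in wt cells at 48 h. At 72 h Mcm2 was the lowest of the ring in CPM too, at 189 CPM in wt and 121 CPM in ko cells.

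Of the 6 genes that turn the ring into the CMG helicase, 4 were lower at 72 h and 0 were higher, and in CPM none of the 6 overlapped. Of all tested genes 19.5% were lower and 16.9% higher, and the ko CPM of 26.8% lay wholly below the wt range. Mcm10, which helps the helicase to fire, had 48.9, 49.5, 56.7 and 49.3 CPM in wt and 32.4, 27.4, 28.8 and 34.4 CPM in ko cells (log2 fold change -0.61, SE 0.083, adjusted p = 5.8e-06). Cdc45, the helicase cofactor, had 80.0, 78.0, 82.2 and 82.8 CPM in wt and 64.0, 64.1, 63.6 and 61.2 CPM in ko cells (-0.23, SE 0.055, adjusted p = 0.00227). Neither gene overlapped between the genotypes, and the log2 fold change of Cdc45 was the smaller. The GINS subunits Gins3 and Gins4 were lower, at -0.34 (SE 0.092) and -0.24 (SE 0.065). Gins1 and Gins2 had log2 fold changes of -0.18 (95% interval -0.38 to 0.012, adjusted p = 0.135) and -0.20 (95% interval -0.36 to -0.036, adjusted p = 0.0511), intervals that also hold the estimate of Gins4.

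The polymerase genes were uneven. Pole, the catalytic subunit of the leading-strand polymerase epsilon, had 72.3, 64.4, 66.6 and 58.4 CPM in wt and 39.9, 38.4, 35.0 and 43.8 CPM in ko cells at 72 h (log2 fold change -0.61, SE 0.13, adjusted p = 9.1e-04). At 48 h the ko libraries 1 to 4 had 50.9, 59.6, 67.0 and 99.8 CPM, so that replicate 4 lay above all wt libraries, at 73.2 to 80.3 CPM, and the other 3 below them. Pole2, the second subunit of the same enzyme, had 27.7, 28.1, 28.6 and 31.2 CPM in wt and 35.0, 30.1, 32.0 and 29.0 CPM in ko cells, which overlapped. Its log2 fold change of 0.25 (SE 0.084, adjusted p = 0.022) did not pass with library totals (0.12, adjusted p = 0.216), nor without ko 72 h replicate 1 (0.0935) or without wt 72 h replicate 1, 2 or 3 (0.0646, 0.0525 and 0.0627).

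Within polymerase alpha-primase, the enzyme that lays down primers, only the accessory subunit Pola2 passed the test at 72 h. It was lower, at 63.3, 61.7, 71.1 and 55.9 CPM in wt and 42.8, 44.4, 42.6 and 45.3 CPM in ko cells (-0.40, SE 0.062, adjusted p = 3.0e-05). The catalytic subunit Pola1 and the primase subunits Prim1 and Prim2 had log2 fold changes of -0.15 (95% interval -0.27 to -0.016), -0.090 (-0.21 to 0.034) and -0.030 (-0.17 to 0.11). In CPM, Pola1 and Prim1 also lay wholly below the wt range, as did 26.8% of all tested genes, while Prim2 overlapped. Pola1 passed as lower in 2 of 26 alternatives and Prim1 in 1. Differences between subunits were not tested. Pold1, the catalytic subunit of polymerase delta, was lower, at -0.28 (SE 0.078, adjusted p = 0.00592), from 145 ± 15.98 CPM to 109 ± 9.03 CPM (SD, n = 4).

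By summed CPM, the clamp and its loader were the step closest between genotypes at 72 h. Pcna, the ring that tethers polymerases, was the highest of the 39 genes per kilobase in wt cells at 48 h, at 262 ± 7.84 CPM per kilobase (SD, n = 4). At 72 h it had 449, 478, 469.8 and 555 CPM in wt and 437, 424, 451 and 439 CPM in ko cells, which overlapped, and wt replicate 4 lay above the rest. Its log2 fold change was -0.032 (95% interval -0.18 to 0.11, adjusted p = 0.752), and -0.16 with library totals (adjusted p = 0.0407). Rfc1, the large subunit of the loader, had 139, 133, 149 and 124 CPM in wt and 94.6, 93.7, 94.7 and 99.0 CPM in ko cells, without overlap (-0.38, SE 0.056, adjusted p = 1.2e-05). Among the small subunits, Rfc5 was lower, at -0.19 (SE 0.063, adjusted p = 0.0171), but not with exon length offsets (adjusted p = 0.0971) or without ko 72 h replicate 4 (0.0648). Rfc2, Rfc3 and Rfc4 had -0.047 (95% interval -0.17 to 0.072), -0.11 (-0.27 to 0.037) and 0.091 (-0.13 to 0.32), and the CPM of Rfc3 and Rfc4 overlapped between the genotypes. Without wt 72 h replicate 4, the highest wt library at 86.3 CPM, Rfc4 had a log2 fold change of 0.23 (adjusted p = 0.0501), and it was higher in ko cells when both libraries that stand apart were left out (0.23, adjusted p = 0.0119).

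The single-strand binding protein RPA was represented by its 2 larger subunits. Rpa2 had 65.5, 64.6, 69.0 and 65.1 CPM in wt and 47.4, 48.3, 46.7 and 45.1 CPM in ko cells (-0.37, SE 0.052, adjusted p = 7.5e-06), with a narrow spread in both. Rpa1 was lower, at -0.17 (SE 0.052, adjusted p = 0.0134), from 186 ± 4.24 CPM to 151 ± 5.88 CPM (SD, n = 4), but had adjusted p = 0.156 with exon length offsets, 0.0516 with no filter, 0.051 with only the groups compared and 0.0525 without ko 72 h replicate 2.

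Both calls among the genes that finish lagging-strand fragments were lost under some alternatives. Lig1, the ligase that seals nicks, had 167, 157, 181 and 145 CPM in wt and 120.3, 115, 127 and 141 CPM in ko cells at 72 h. The highest ko library came near the lowest wt library, and the log2 fold change was -0.24 (SE 0.084, adjusted p = 0.0287). The call was lost with exon length offsets (0.07), without wt 72 h replicate 1 (0.0598) or 3 (0.1), and without ko 72 h replicate 1 (0.0763), 2 (0.101) or 3 (0.0546). Fen1, the flap endonuclease, had the lowest mean CPM per kilobase of exon of the 39 genes in every group, such as 4.84 ± 0.275 in wt cells at 48 h and 2.47 ± 0.358 at 72 h (SD, n = 4). At 72 h it had 4.96, 5.86, 7.08 and 6.01 CPM in wt and 3.29, 3.55, 4.80 and 4.49 CPM in ko cells, and overlaps 2 other gene models. Its log2 fold change of -0.44 (SE 0.14, adjusted p = 0.0125) had adjusted p = 0.0535 without wt 72 h replicate 3 and 0.0535 without ko 72 h replicate 1.

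Nucleotide supply showed the lowest ko sum relative to wt. Rrm2, the small subunit of ribonucleotide reductase, had 136, 139, 177 and 162 CPM in wt and 91.7, 84.1, 76.4 and 85.5 CPM in ko cells at 72 h (-0.73, SE 0.082, adjusted p = 4.6e-07). Rrm1, the large subunit, had 285, 267, 309 and 290.4 CPM in wt and 189.6, 170.2, 179.6 and 189.8 CPM in ko cells (-0.53, SE 0.058, adjusted p = 3.1e-07). Neither subunit overlapped between genotypes at 72 h. At 48 h, Rrm1 had 429, 447, 425 and 418 CPM in wt and 327, 341, 381 and 369.5 CPM in ko cells, also without overlap. Tk1, the thymidine salvage kinase, was lower at 72 h, at -0.32 (SE 0.053, adjusted p = 4.6e-05), from 109.5 ± 6.90 CPM to 80.2 ± 3.49 CPM (SD, n = 4). Tyms, thymidylate synthase, had 48.8, 49.1, 48.7 and 52.3 CPM in wt and 41.1, 37.8, 42.5 and 42.4 CPM in ko cells, which did not overlap, yet its log2 fold change of -0.15 (95% interval -0.29 to -0.022) missed the threshold on the TMM scale (adjusted p = 0.0629).

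The E cyclins, which activate CDK2 at the start of S phase, had the lowest 72 h levels relative to 48 h of any step. Ccne1 had 48.9, 46.8, 61.7 and 45.9 CPM in wt and 38.6, 33.3, 35.8 and 32.1 CPM in ko cells at 72 h, without overlap (-0.41, SE 0.077, adjusted p = 2.0e-04). Ccne2 at 72 h had 25.2, 30.1, 25.7 and 34.6 CPM in wt and 22.3, 21.9, 25.4 and 22.3 CPM in ko cells, and ko replicate 3 reached the wt range (-0.21, 95% interval -0.42 to -0.003, adjusted p = 0.106). At 48 h Ccne2 stood at 56.9, 64.3, 61.0 and 59.1 CPM in wt and 79.0, 75.0, 72.8 and 63.8 CPM in ko cells, 3 of the 4 ko libraries being above all wt libraries (0.31, SE 0.096, adjusted p = 0.0542). That value passed the threshold in 11 of 26 alternatives, among them the fit that leaves out both libraries named above as standing apart (adjusted p = 0.000548).

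**Figure D4:**
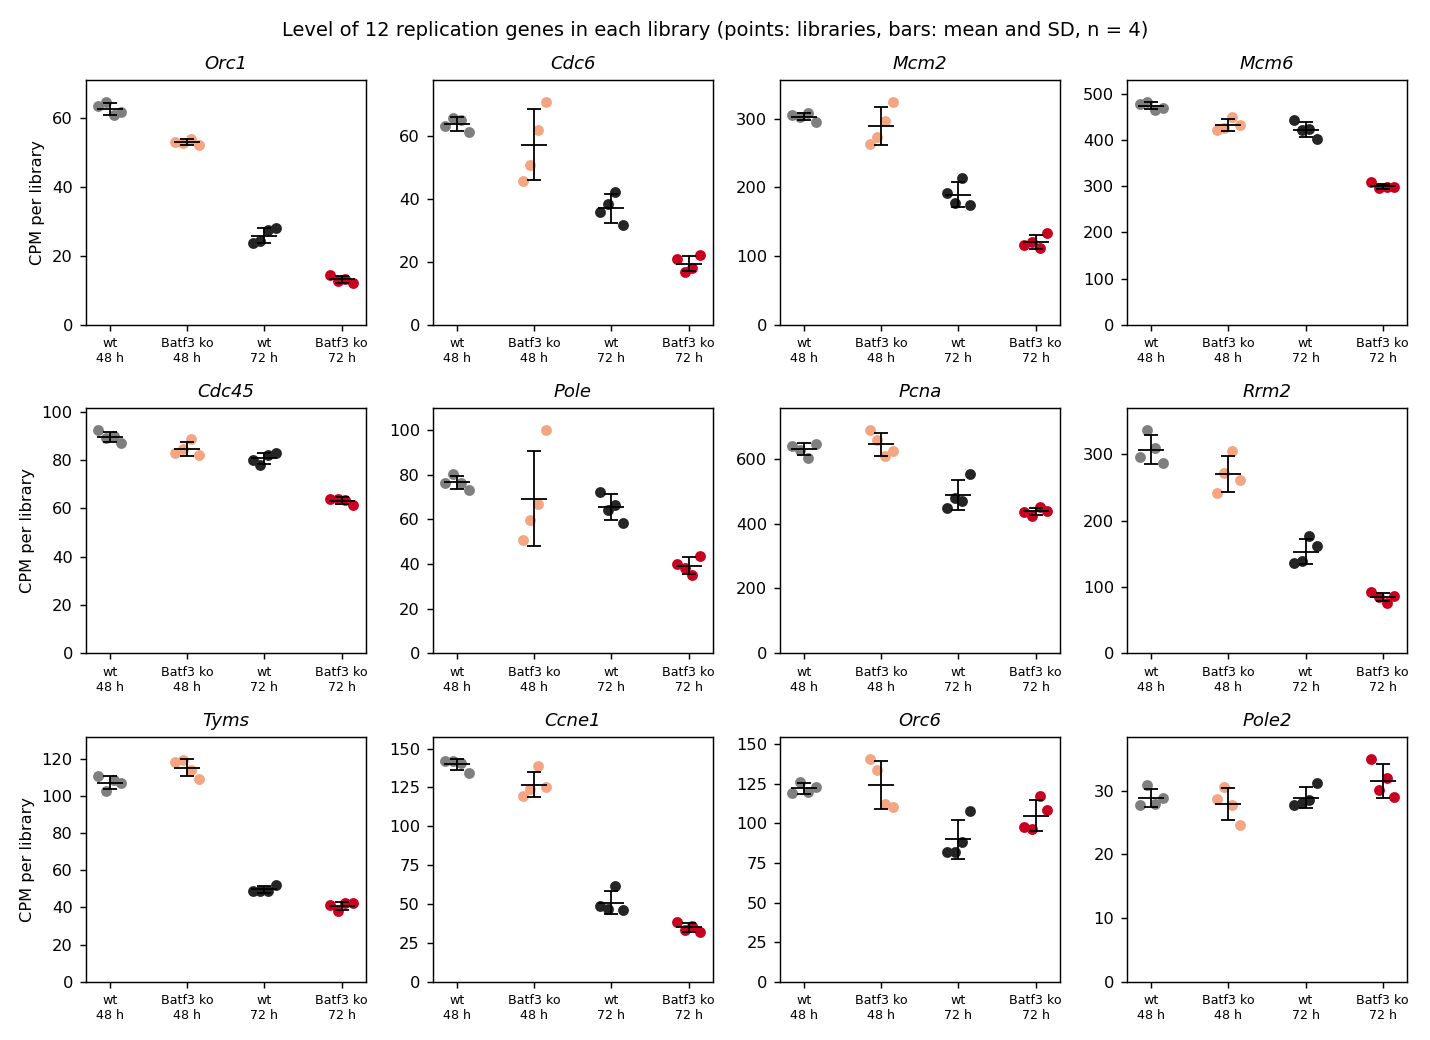
The y axes are CPM from 0, points are the 4 libraries of each group, and bars are the mean and SD. Orc1, Cdc6, Mcm2, Mcm6, Cdc45, Pole, Rrm2, Tyms and Ccne1 do not overlap between genotypes at 72 h, whereas Pcna, Orc6 and Pole2 do.

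From 48 h to 72 h, 31 of the 39 genes fell in wt cells and 0 rose, where 29.9% of all tested genes fell and 33.6% rose. At an unadjusted p below 0.05, 32 were lower and 0 higher, and neither DESeq2 nor limma-voom called any higher. In ko cells 35 fell and 1, Pole2, rose, where 33.6% of all tested genes fell and 34.4% rose. With both libraries that stand apart left out, 33 fell in wt cells, and 35 fell and 0 rose in ko cells. The medians were -0.33 in wt and -0.52 in ko cells, against 0.054 and 0.029 for all tested genes. The order of the genes was alike in the 2 genotypes, which share no library, with a Spearman rho of 0.83 over the 39 genes as a description. In 35 of the 39 the fitted change was lower in ko cells. The median difference in change, ko less wt, was -0.27 for the 39 genes. It was negative for all tested genes too, at -0.039 (-0.13 with library totals). The rise of Pole2 in ko cells (0.24, SE 0.084) did not pass with library totals (0.0526), with no filter on low counts (0.065), without ko 48 h replicate 4 (0.0724) or without ko 72 h replicate 1 (0.0723).

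The genes that fell most with time were Ccne1 (-1.49 in wt, SE 0.076, and -1.79 in ko cells, SE 0.077) and Orc1 (-1.30, SE 0.072, and -1.94, SE 0.075). Ccne1 went from 135 to 142 CPM at 48 h to 45.9 to 61.7 CPM at 72 h in wt cells. Tyms stood at -1.13 and -1.43, Ccne2 at -1.08 and -1.60, Rrm2 at -1.03 and -1.61, and Cdc6 at -0.81 and -1.49, in wt and ko cells. Pola2 stood at -1.0 and -1.275, and Fen1 at -1.0 and -1.270, in wt and ko cells, both lower than Cdc6 in wt cells. In wt cells Cdt1 (-0.038, 95% interval -0.18 to 0.11), Pold1 (-0.007, -0.17 to 0.15), Lig1 (-0.021, -0.19 to 0.15), Rfc2 (-0.043, -0.16 to 0.074) and Prim2 (-0.065, -0.21 to 0.079) did not pass the test. Nor did Pole2 (-0.022, -0.20 to 0.15), Pole (-0.25, -0.52 to 0.005, edgeR adjusted p = 0.081) and Rfc4 (-0.24, -0.46 to -0.011, edgeR adjusted p = 0.0621). Pole and Rfc4 each passed in 9 of 26 alternatives. Cyclin E in sum stood at 39.9% of its 48 h level in wt and 29.0% in ko cells, nucleotide supply at 61.6% and 44.6%, the MCM ring at 79.6% and 61.3%, and the polymerases at 83.2% and 72.0%.

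**Figure D5:**
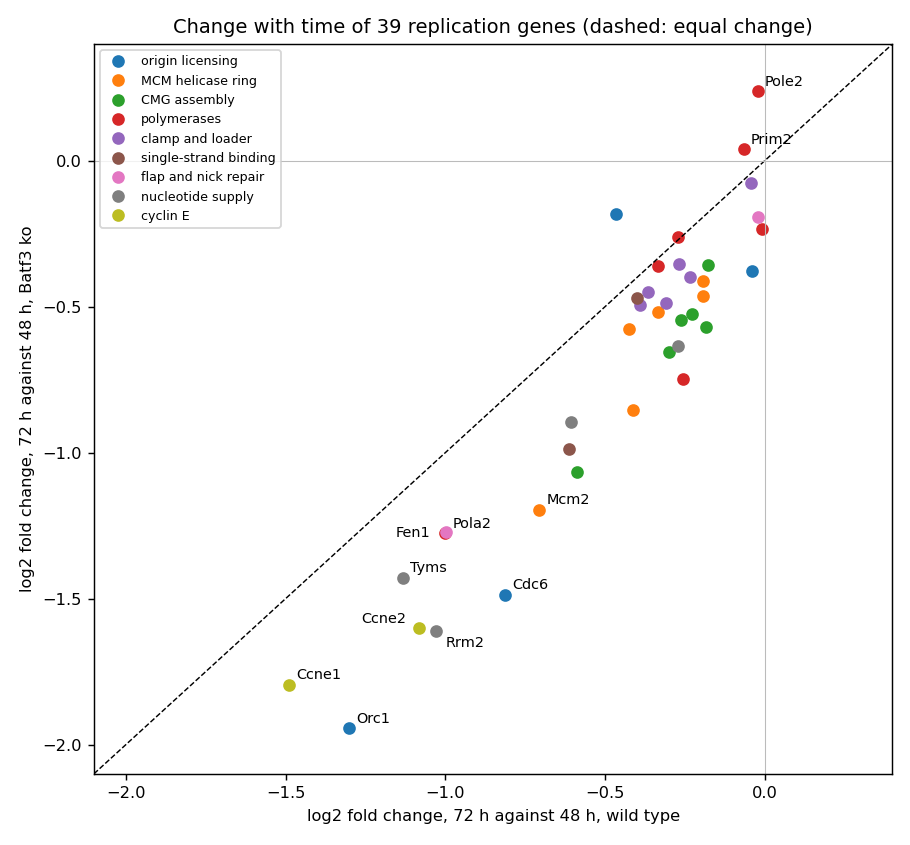
Each point is 1 gene, with its log2 fold change from 48 h to 72 h in wt cells on the x axis and in ko cells on the y axis, coloured by step. Of the 39 points 35 lie below the dashed line of equal change, Orc1 and Ccne1 are at the lower left, and Pole2 is at the top.

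The genotype effect differed between the times in 13 of the 39 genes, all more negative at 72 h, and in 0 in the other direction, where 3.53% of all tested genes had a negative and 2.08% a positive interaction. At an unadjusted p below 0.05, 24 were negative and 1 positive. DESeq2 called 15 and limma-voom 13, each with 0 positive. The 13 were Orc1 (-0.64, SE 0.10, adjusted p = 5.2e-04), Cdc6 (-0.67, SE 0.14) and Cdt1 (-0.34, SE 0.099) of licensing, Mcm2 (-0.49), Mcm3 (-0.44) and Mcm6 (-0.27) of the ring, Mcm10 (-0.48) and Gins4 (-0.39), Rpa2 (-0.37), Rrm1 (-0.29), Rrm2 (-0.58) and Tk1 (-0.36) of nucleotide supply, and Ccne2 (-0.52). Orc1, Cdc6, Mcm2, Rpa2, Rrm2 and Tk1 passed under all 25 alternatives. The count was 8 without any 1 of wt 48 h replicate 1, ko 48 h replicate 3 or ko 72 h replicate 3, 20 with library totals and 17 when both libraries that stand apart were left out. Of the other 7, Mcm10 lost its call without ko 72 h replicate 3 (0.0514) and Gins4 without ko 48 h replicate 2 (0.0524), and the Mcm3, Mcm6, Ccne2, Rrm1 and Cdt1 calls were lost under 5, 8, 8, 12 and 13 alternatives, with adjusted p up to 0.152. None of the 7 polymerase genes and 6 clamp and loader genes passed in edgeR, but Pola2 passed in 6 of the 25 alternatives, Pole in 2 and Rfc1 in 1.

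Calls were found in genes with and without E2F-like letters. At 72 h, 10 of the 13 genes with such letters were lower in ko cells (median log2 fold change -0.29) and 13 of the 18 genes with a window but without them (median -0.34). In each class 1 gene was higher, where 19.5% of all tested genes were lower and 16.9% higher. With time in wt cells, 9 of the 13 and 17 of the 18 fell, with medians of -0.23 and -0.53. No gene of either class rose, where 29.9% of all tested genes fell and 33.6% rose. These counts are descriptions, and a window without the letters may still be bound. Mcm6 and Mcm5, whose sequences are shown, were both lower at 72 h, and Pola1, with 1 match, had -0.15.

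Among 66 other replication genes listed for comparison, ko cells at 72 h had 38 lower and 6 higher (median -0.24), where 19.5% of all tested genes were lower and 16.9% higher. At 48 h, 3 of the 66 were lower and 4 higher (median -0.025), close to the 2.66% and 4.41% of all tested genes. Of 14 licensing and firing genes 10 were lower at 72 h and 2 higher, the origin recognition subunits Orc3 (0.16, SE 0.059) and Orc4 (0.31, SE 0.085), named here after their values were seen. The 10 included the fork adaptor Wdhd1 (-0.54, SE 0.075), the firing factor Ticrr (-0.50, SE 0.087) and its partner Mtbp (-0.49, SE 0.077). Of 16 polymerase and fork genes 8 were lower, among them the nuclease-helicase Dna2 (-0.71, SE 0.099) and the fork protection gene Timeless (-0.60, SE 0.069). The 1 higher was Pold4, the small subunit of polymerase delta, at 45.0 ± 1.38 CPM in wt and 64.9 ± 5.28 CPM in ko cells at 72 h (SD, n = 4; 0.66, SE 0.074, adjusted p = 5.1e-07, edgeR). It was also higher at 48 h (0.28, SE 0.082, adjusted p = 0.0359).

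Of 10 further nucleotide supply genes 6 were lower and 1 higher at 72 h, where 19.5% of all tested genes were lower and 16.9% higher. Shmt1, which makes the folate cofactor for thymidylate synthesis, had 41.9 ± 3.65 CPM in wt and 22.4 ± 2.94 CPM in ko cells (SD, n = 4; -0.77, SE 0.084), and Ctps, CTP synthase, was lower, at -0.57 (SE 0.074). Both were lower at 48 h too, at -0.29 (adjusted p = 0.0252) and -0.25 (adjusted p = 0.0374). Samhd1, which degrades deoxynucleotides, was the 1 higher (0.56, SE 0.063), and its genotype effect was more positive at 72 h than at 48 h (interaction 0.47, SE 0.089, adjusted p = 0.00289). Of 5 chromatin assembly genes 4 were lower at 72 h, the histone chaperone subunits Chaf1a (-0.57, SE 0.081) and Chaf1b (-0.24, SE 0.069), the maintenance methyltransferase Dnmt1 (-0.51, SE 0.096) and its recruiter Uhrf1 (-0.43, SE 0.085).

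Of 13 genes for E2F factors and their partners, 5 were lower and 1 higher at 72 h, where 19.5% of all tested genes were lower and 16.9% higher. E2f8, an atypical repressor, went from 28.0 ± 3.78 CPM in wt to 15.1 ± 1.81 CPM in ko cells (SD, n = 4; -0.76, SE 0.092, adjusted p = 1.2e-06). Tfdp1, the dimer partner of the E2F factors, was lower, at -0.49 (SE 0.056), the activator E2f3 at -0.37 (SE 0.081), the atypical E2f7 at -0.37 (SE 0.14, adjusted p = 0.0339) and the pocket protein gene Rbl1 at -0.23 (SE 0.072). E2f5 was higher by 0.31 (SE 0.087). The activators E2f1 and E2f2 had -0.10 (SE 0.070, adjusted p = 0.274) and -0.091 (SE 0.077, adjusted p = 0.377), and E2f4 and E2f6 -0.13 (adjusted p = 0.103) and -0.20 (adjusted p = 0.066). At 48 h, E2f2 was higher in ko cells (0.26, SE 0.077, adjusted p = 0.0398). The other E2f genes did not pass at 48 h, with log2 fold changes from -0.095 to 0.12. With time in wt cells 6 of the 13 genes fell and 6 rose, where 29.9% of all tested genes fell and 33.6% rose. The 6 that fell were Tfdp1 (-1.01, SE 0.056), E2f3 (-0.38), E2f4 (-0.56), E2f5 (-0.47), E2f6 (-0.39) and E2f8 (-0.30). The activators E2f1 (0.30, SE 0.070) and E2f2 (0.25, SE 0.077) rose, as did the pocket protein genes Rb1 (0.98, SE 0.077) and Rbl2 (0.94, SE 0.068), and E2f7 had -0.22 (adjusted p = 0.14). In ko cells 7 of the 13 fell with time and 4 rose, where 33.6% of all tested genes fell and 34.4% rose.

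Of 8 genes that control the S phase kinase, 5 were lower and 1 higher at 72 h, where 19.5% of all tested genes were lower and 16.9% higher. Lower were the phosphatase that activates CDK2, Cdc25a (-0.66, SE 0.078), the ubiquitin ligase subunit Skp2 (-0.53, SE 0.12), Cdk2 itself (-0.44, SE 0.074), cyclin A2, Ccna2 (-0.21, SE 0.069), and Fbxo5 (-0.34, SE 0.064), an inhibitor of the anaphase-promoting complex. Rbl1, Chaf1b, Ccna2 and Fbxo5 are named to complete counts of 5 or fewer, after their values were seen. Cdkn1b, which encodes the CDK inhibitor p27, rose with time in both genotypes, by 1.95 in wt (SE 0.082) and 2.01 in ko cells (SE 0.081). It was the 1 higher in ko cells at 72 h (0.37, SE 0.077) and was higher at 48 h too (0.30, SE 0.081, adjusted p = 0.0238), when Cdc25a was lower (-0.29, SE 0.074, adjusted p = 0.019). Over the 66 genes, 39 fell and 11 rose with time in wt cells, where 29.9% of all tested genes fell and 33.6% rose, and 52 fell and 10 rose in ko cells, where 33.6% fell and 34.4% rose. With time Pold4 rose by 1.89 in wt and 2.27 in ko cells, and Shmt1 fell, at -1.68 and -2.16. Among the 66 the interaction was negative in 14, against 3.53% of all tested genes, and positive in 3, against 2.08%. The most negative of the 14 were E2f8 (-0.67, SE 0.13), Dna2 (-0.54, SE 0.13), Mtbp (-0.53, SE 0.11), Chaf1a (-0.52, SE 0.11) and Timeless (-0.52, SE 0.097). The 3 positive were Samhd1, Pold4 (0.37, SE 0.11) and Orc3 (0.35, SE 0.084).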

How the data were processed

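Libraries were made from 100 ng of RNA with a stranded poly-A kit, per the labels' protocols. The authors deposited raw read counts for each gene, as whole numbers. The submitters' processing notes name GRCm38 as the build and bcl2fastq 2.2.0, STAR 2.7 and featureCounts as tools. Which annotation release, strand setting and rule for multiply matching reads applied is not given in the sources used here. GENCODE M21, which matched 55154 of 55335 gene identifiers, gave positions and exon lengths, and RefSeq gave start-site windows.

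The members and gene lists were chosen with earlier results of these data known. All 16 libraries in 4 groups from the labels entered 1 fit in edgeR 4.0.16 (R 4.3.3) scaled by TMM and filtered by filterByExpr (minimum count 10), with a robust quasi-likelihood F test, two-sided. P-values were adjusted by Benjamini-Hochberg over 15197 genes, with a threshold of 0.05. CPM were computed from column totals. A count of 0 allows up to 3 counts, or 0.0765 to 0.102 CPM, for counting error only. No pair of libraries of a group agreed within sampling noise. The edgeR script was tested on simulated counts. All members are named. Of the other replication genes, those named by size came from up to 3 per list and comparison that passed at a mean log2 CPM of 3 or more. Not all that met this rule are given, mainly with time. E2f1 to E2f8 were named in the genotype comparisons and with time in wt cells whatever their result. Genes that complete a count of 5 or fewer were named after their values were seen. The alternatives tried were DESeq2 1.42.0, limma-voom (limma 3.58.1), scaling by median ratios or library size, other filters, only the groups compared, a replicate block, exon length offsets and leaving out libraries.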

Additional observations from a re-analysis of the deposited data

Results flagged for a closer look

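The genotype effect at 72 h was more negative than that at 48 h, by the interaction test, in 13 of the 39 genes, with log2 differences of -0.64 for Orc1, -0.67 for Cdc6, -0.34 for Cdt1, -0.49 for Mcm2, -0.44 for Mcm3, -0.27 for Mcm6, -0.48 for Mcm10, -0.39 for Gins4, -0.37 for Rpa2, -0.29 for Rrm1, -0.58 for Rrm2, -0.36 for Tk1 and -0.52 for Ccne2. Among all tested genes 3.53% had a negative interaction. Only 6 of the 13 calls held under every alternative, and those of Cdt1 and Rrm1 were lost under 13 and 12 of 25.

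In 11 of 156 group-by-gene sets of 4 libraries, 1 library lay farther from the other 3 than Dixon's 95% limit allows, where chance flags about 1 in 20, or 7.8. In ko cells at 72 h these were Mcm3 in replicate 4 (163.8 CPM), Mcm6 in replicate 1 (308.3 CPM), Cdc45 in replicate 4 (61.2 CPM) and Ccne2 in replicate 3 (25.4 CPM). In wt cells at 72 h they were Mcm10 and Tk1 in replicate 3 (56.7 and 119.8 CPM), Gins4 in replicate 1 (47.6 CPM) and Rfc4 and Tyms in replicate 4 (86.3 and 52.3 CPM). At 48 h they were Rfc3 in ko replicate 4 (46.4 CPM) and Rfc4 in wt replicate 4 (88.6 CPM).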

How the results depend on the processing

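No direction of a call was reversed under any of the alternatives run, where a change of sign in a value that passed in neither fit was not counted. Of the 39 genes, the calls that held under every alternative numbered 0 of 3 (48 h), 23 of 28 (72 h), 24 of 31 (time, wt), 33 of 36 (time, ko) and 6 of 13 (interaction). The 26 genes lower at 72 h ranged from 24 with exon length offsets to 35 with library totals, and from 24 to 28 with 1 library left out. At 48 h, the 3 lower became 1 with exon length offsets and 6 without both libraries that stand apart, and 1 to 4 when 1 library was left out. The 0 higher became 1 with DESeq2, limma-voom, the filter of 1 CPM in 4 libraries, exon length offsets or only the groups compared, 2 with no filter and 5 without both libraries, and 0 to 3 with 1 library left out. Other counts that moved by over 1.5 times are these. With library totals the 2 higher at 72 h became 1, the 1 that rose with time in ko cells became 0 (also 0 with no filter and without both libraries), and the 13 negative interactions became 20. For the 66 other genes library totals gave 5 lower and 2 higher at 48 h, 3 higher at 72 h and 34 negative interactions. Median-ratio scaling and DESeq2 gave 6 lower at 48 h, no filter 23 negative interactions, and the fit without both libraries 7 lower and 8 higher at 48 h and 22 negative interactions. With 1 library left out, 1 to 2 were higher at 72 h, 0 to 1 rose with time in ko cells, 8 to 15 had a negative and 0 to 1 a positive interaction, and of the other genes 0 to 6 were lower and 0 to 5 higher at 48 h and 7 to 16 had a negative interaction. The replicate number as a replicate block gave 3 lower and 0 higher at 48 h, 26 and 2 at 72 h, 31 and 0 with time in wt, 34 and 1 with time in ko cells and 10 negative interactions. Same-numbered libraries deviated together (r above 0.1) in 9 of 24 pairs (-0.60 to 0.29). In 4 of the 24 pairs the same number was the best match of the first library in the other group, so the numbers were not taken to pair libraries. The causes of these shifts were not tested.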
